A study of Mus musculus with 2 samples.

Results

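The fibril-associated collagens examined here are 7 genes of the FACIT family (fibril-associated collagens with interrupted triple helices), chosen by symbol from the 31253 genes counted in single cells of mouse periosteum. They are Col9a1, Col9a2 and Col9a3, whose products join into 1 collagen IX molecule, and Col12a1, Col14a1, Col16a1 and Col22a1, which encode collagens XII, XIV, XVI and XXII. All 7 were found in both libraries. The cells came from the periosteum of femurs and tibias at 8 weeks of age, digested and sorted for the Ai9 reporter that Prx1 Cre switches on (Prrx1-Ai9+ cells). The control library came from Prx1 Cre; Ai9/+ mice and the other from mice that carried the same Cre and reporter with both Piezo1 alleles floxed (Piezo1 fl/fl). Both groups therefore hold the Cre, and recombination of Piezo1 could occur wherever Prx1 Cre had been active. There was 1 BD Rhapsody library per genotype, and the sources used here do not say how many mice each one pooled.

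FACIT collagens do not form fibrils of their own. They sit on the surface of fibrils made by collagen I, II and their relatives, where a short collagenous stretch binds the fibril and larger non-collagenous domains reach out to neighbouring matrix. Collagen IX is bound to collagen II fibrils in cartilage, collagens XII and XIV coat collagen I fibrils in tendon, ligament, skin and the bone surface, collagen XVI occurs in several connective tissues, and collagen XXII is known from tissue junctions such as that between muscle and tendon. The periosteum holds an outer fibrous layer and an inner layer next to bone, so its cells meet several kinds of fibril.

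Cell types were set from marker genes counted in each cell, each marker scaled over both libraries together, and none of the 7 genes was a marker. Levels were taken in each library by itself. Of the 4418 control cells and 5084 Piezo1 fl/fl cells retained, 4207 and 4818 received 1 of 13 names and 211 and 266 remained unnamed. Each name stands for cells that resemble a type, and is written with "-like" for that reason. SSPC-1 and SSPC-2 are the study's names for the skeletal stem and progenitor classes of the periosteum. The control library held 644 SSPC-1-like, 247 tendon-like, 522 SSPC-2-like and 244 preosteoblast-like cells, the last being SSPC-2-like cells with at least 20 Ibsp UMIs per 10000. The Piezo1 fl/fl library held 773, 454, 203 and 190 of these. Fibroblasts were split by the markers around Pi16 (837 and 1167 cells) and those around Gdf10 (690 and 867 cells). Mature osteoblast-like, chondrocyte-like, perineurial-like, endothelial-like, mural-like, blood-like and Prg4-rich lining-like cells made up the rest.

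Total UMIs were 28030299 in the control library over 6118 barcodes and 32337308 in the Piezo1 fl/fl library over 7469 barcodes, and 50 barcodes occurred in both. A UMI is 1 captured RNA molecule read at its 3′ end. Levels are UMIs of a gene per 1000000 UMIs of the cell type (CPM), and ranges in square brackets are 95% counting intervals (exact Poisson for a level, exact conditional for a ratio of 2 counts, exact binomial for a share). These intervals cover counting error only. With 1 library per genotype no difference could be tested against animals, and every difference below compares these libraries. Endothelial-like, mural-like and blood-like cells were taken as gauges of free RNA, because RNA released from broken cells adds a few UMIs to every type. Whether some of these cells make the members themselves was not tested.

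The split between SSPC-1-like and tendon-like cells rested on the summed level of Kera, Tnmd, Scx and Thbs4, at 100 UMIs per 10000. In the control library 93 of the 891 cells of both classes lay between 70 and 140, and in the Piezo1 fl/fl library 276 of 1227 did. SSPC-1-like cells had a higher median score on the tendon list than on their own (0.356 and 0.337 in the control library, 0.350 and 0.273 in the other). The tendon score could also place a cell in the SSPC-1-like class, so the 2 classes are neighbours. Piezo1 itself had 52 UMIs in the 4 skeletal progenitor and tendon-like classes of the control library and 11 in those of the Piezo1 fl/fl library. A 3′ count does not read the floxed exons, and it therefore does not check the deletion.

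Collagen IX was almost confined to a handful of cells in the control library. Of its 2044 collagen IX UMIs, 1875 (91.7%) were in the 15 chondrocyte-like cells, and 14 of those 15 cells held all 3 genes. No other retained control cell held all 3, and none of another type held more than 10 collagen IX UMIs. Per chondrocyte-like control cell, Col9a1 ran from 0 to 183 UMIs with a median of 31, Col9a2 from 0 to 112 with a median of 27, and Col9a3 from 0 to 73 with a median of 26. The 3 genes went together over these cells: the 8 cells richest in collagen IX held 26 or more UMIs of each, while the other 7 held 11 or fewer of Col9a1, 25 or fewer of Col9a2 and 12 or fewer of Col9a3.

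The cartilage collagens that collagen IX is bound to went with it in the control cells. Col2a1, the main fibril-forming collagen of cartilage, was present in 14 of the 15 cells at 0 to 1646 UMIs per cell, and Col11a1 and Col11a2, its partners in the fibril core, were present in all 15. The single chondrocyte-like control cell without collagen IX also had no Col2a1 UMI. Cnmd (chondromodulin) and Matn3 (matrilin-3), markers of cartilage, had medians of 31 and 16 UMIs per cell. Both are on the chondrocyte list that named these cells, so their presence is not independent of the naming.

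In the Piezo1 fl/fl library the 16 cells given the chondrocyte-like name held 127 collagen IX UMIs, 45.7% of 278, and only 4 of them had all 3 genes. The highest cell had 32 Col9a1, 28 Col9a2 and 11 Col9a3 UMIs, and 6 of the 16 had none of the 3. As levels, Col9a1 was 4727 CPM [4430, 5039] in control and 359 CPM [264, 478] in Piezo1 fl/fl chondrocyte-like cells, Col9a2 2829 and 466 CPM, and Col9a3 1883 and 145 CPM. Without the Piezo1 fl/fl cell richest in each gene, Col9a1 was 126 CPM, Col9a2 277 CPM and Col9a3 67.2 CPM there. The cells behind these levels were not alike in other genes either. Col1a1, the collagen of bone and tendon, exceeded Col2a1 in 9 of the 16 Piezo1 fl/fl cells and in 2 of the 15 control cells, its median being 105.5 UMIs per cell in the first and 11 in the second. The bone sialoprotein gene Ibsp had medians of 9.0 and 2.0 UMIs per cell, with 1282 of its 2161 Piezo1 fl/fl and 655 of its 1420 control UMIs in 1 cell of each library. Cnmd stood at 214 CPM in Piezo1 fl/fl and 2376 CPM in control cells, with 19 of its 28 Piezo1 fl/fl UMIs in 1 cell. Other genes of the chondrocyte list, which named these cells, did not all follow. Acan, Sox9 and Hapln1 had a UMI in all 15 control and all 16 Piezo1 fl/fl cells. Their control and Piezo1 fl/fl UMIs were 947 and 581, 440 and 166, and 857 and 383, of 198643 and 130880 in all. Cytl1 had 636 and 640 UMIs, with 568 and 274 in 1 cell, and Matn3 had 292 and 11. The cartilage label thus went with Col2a1 over Col1a1 in 13 control cells and against it in 9 of the Piezo1 fl/fl cells. The genotype and the cells that happened to be caught cannot be told apart as the source of the collagen IX difference. With at least 100 UMIs over both libraries, 0 of 4 members were higher and 3 of 4 lower by 1.5-fold in the Piezo1 fl/fl cells, where 16.6% and 31.6% of the 434 genes counted were. The fourth, Col12a1, had a log2 ratio of 0.06 [-0.17, 0.30], or -0.63 without the Piezo1 fl/fl cell richest in it.

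**Figure D1:**
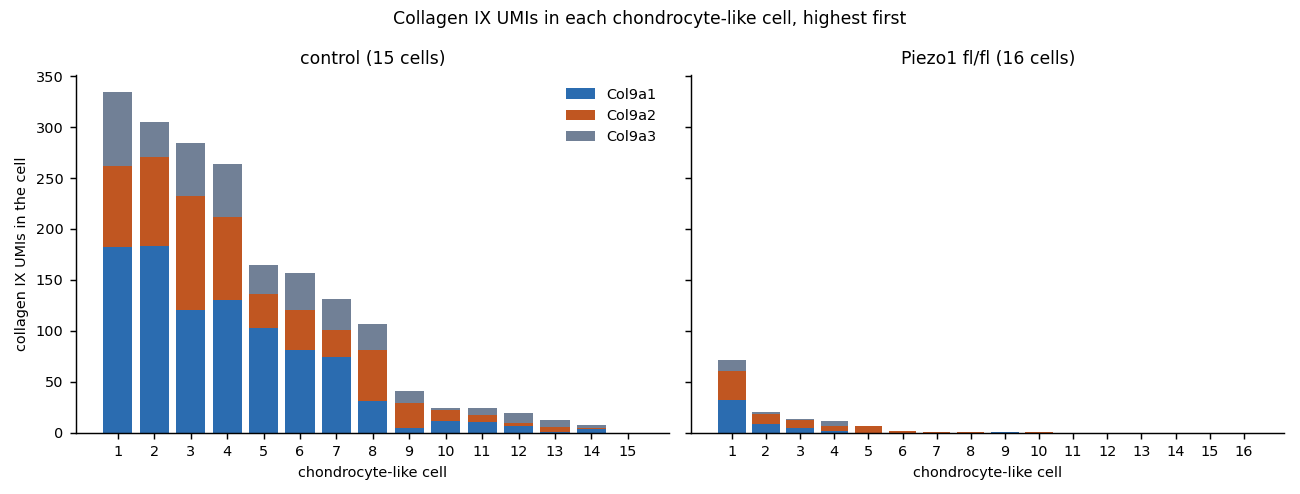
Each bar is 1 chondrocyte-like cell, ordered by its collagen IX UMIs, with the UMIs of Col9a1, Col9a2 and Col9a3 stacked on the vertical axis; the left panel holds the 15 control cells and the right panel the 16 Piezo1 fl/fl cells. In the control panel 13 cells exceed 10 UMIs, against 4 in the Piezo1 fl/fl panel.

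Outside the chondrocyte-like cells Col9a2 left a trace in several skeletal classes. Col9a1 had 14 UMIs in control SSPC-2-like cells (3.73 CPM [2.04, 6.26]) and 8 in those of the Piezo1 fl/fl library, at most 2 in a cell, and this was not apart from endothelial-like cells (3.18 CPM [0.385, 11.5]). Col9a2 had 29 UMIs in SSPC-2-like cells (7.73 CPM [5.18, 11.1]) and 26 UMIs in preosteoblast-like cells (14.6 CPM [9.56, 21.5]) of the control library, and 15 UMIs in its tendon-like cells (10.4 CPM [5.84, 17.2]). The Piezo1 fl/fl library gave 19.0 CPM [11.9, 28.7], 12.4 CPM [7.21, 19.8] and 3.47 CPM [1.5, 6.84] for the 3 classes. Against this, Col9a2 had 2 UMIs in all control blood-like cells (1.12 CPM [0.136, 4.05]) and 1 in all endothelial-like cells. No single SSPC-2-like or preosteoblast-like cell had more than 3. Col9a3 had 0 UMIs in the 522 control SSPC-2-like cells, which allows up to 0.575% of such cells to hold one at the limit of 3 counts.

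Col9a1 lies on chromosome 1 (GRCm38, 24177610 to 24252684, plus strand), Col9a2 on chromosome 4 (121039385 to 121055322, plus) and Col9a3 on chromosome 2 (180597790 to 180622189, plus), so 3 separate loci were detected together in the same control cells. RefSeq lists 2 start sites for Col9a1, and 3′ counts cannot say which was used. The 250 bases before the upstream start site, the only window of a member in the promoter table that no GENCODE exon overlaps, are shown for that reason (RefSeq, GRCm38.p6, chr1:24177360-24177609, plus strand).
Col9a1 upstream window: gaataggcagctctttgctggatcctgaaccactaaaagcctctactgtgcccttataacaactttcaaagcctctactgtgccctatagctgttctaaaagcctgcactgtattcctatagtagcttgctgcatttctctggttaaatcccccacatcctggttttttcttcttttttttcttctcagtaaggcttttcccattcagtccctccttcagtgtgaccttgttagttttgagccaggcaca
Both strands were searched for the letters of some common promoter motifs. None occurred in this window, so it has no capitals. Of the 32851 windows in the table, 12.4% held the TATA box letters TATAAA. The share was 33.8% for the CAAT box letters CCAAT and 32.7% for the GC box letters GGGCGG. Letters that SOX factors can bind stood in 10.7% of windows for ACAATG and in 16.5% of windows for ACAAAG. The table held 3 of the 7 genes.

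Col12a1 was highest in the skeletal progenitors. In the control library it stood at 9429 CPM [9331, 9527] in SSPC-2-like cells, 7882 CPM [7752, 8013] in preosteoblast-like cells, 2992 CPM [2903, 3082] in tendon-like cells and 2390 CPM [2341, 2439] in SSPC-1-like cells. Those 4 classes held 52.6%, 20.8%, 6.39% and 13.6% of all its UMIs in retained control cells. Chondrocyte-like cells (1842 CPM) and the 33 perineurial-like cells (1721 CPM) came next and did not differ beyond counting error. Mature osteoblast-like cells followed at 424 CPM [371, 483], which is 18.6-fold [16.3, 21.2] below preosteoblast-like cells. Their median cell held 0.817 UMIs per 10000, and their median score was 0.547 on their own list and 0.343 on the SSPC-2 list. Clustering without collagen genes gave a control mature osteoblast-like cluster of 33 cells at 75.5 CPM, so this level depends on how the class was drawn. The 2 fibroblast classes were low, at 142 and 158 CPM. These lie near the 121 CPM of endothelial-like, the 133 CPM of mural-like and the 77.9 CPM of blood-like cells.

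Nearly every progenitor carried Col12a1. A UMI was present in 99.4% of control SSPC-2-like cells and 97.0% [95.4, 98.2] of the SSPC-1-like class, against 21.6% of endothelial-like and 21.8% of blood-like cells. After every cell was thinned to 2500 UMIs these became 98.8%, 94.9%, 16.4% and 16.6%. Thinned fibroblasts stood at 22.5% (Pi16) and 25.4% (Gdf10), little above that background. The amount varied within a class: over SSPC-2-like control cells the 10th percentile was 17.7 UMIs per 10000, the median 81.0 and the 90th percentile 157.

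Col16a1, the gene of collagen XVI, was also highest in the SSPC-2-like and preosteoblast-like classes, though in another order. It was highest in control preosteoblast-like cells (1010 CPM [963, 1058]), then in SSPC-2-like cells (886 CPM [856, 916]), SSPC-1-like cells (460 CPM [439, 482]) and tendon-like cells (357 CPM [327, 389]). Chondrocyte-like cells, at 352 CPM [275, 445], did not differ from tendon-like cells beyond counting error. Mature osteoblast-like cells were 9.43-fold [7.26, 12.5] below preosteoblast-like cells, at 107 CPM. The 33-cell control cluster of that name, drawn without collagen genes, had 36.5 CPM. Fibroblasts held 64.6 CPM (Pi16) and 91.4 CPM (Gdf10), above the 19.1 CPM [9.85, 33.3] of endothelial-like and the 26.3 CPM [19.4, 35.0] of blood-like cells.

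Col14a1, the gene of collagen XIV, had the reverse distribution. Control Pi16 and Gdf10 fibroblast-like cells stood at 1177 CPM [1147, 1208] and 1161 CPM [1127, 1196], did not differ beyond counting error, and held 49.3% and 37.3% of its UMIs. SSPC-1-like cells followed at 176 CPM [163, 190] and tendon-like cells at 109 CPM [92.8, 128]. SSPC-2-like cells, at 40.0 CPM [33.8, 46.9], were below blood-like cells at 77.9 CPM [65.5, 92.0], and their thinned share with a UMI (8.30%) lay between that of endothelial-like (5.17%) and blood-like cells (12.8%). Mural-like cells, the third gauge of free RNA, were lower, at 14.2 CPM [8.44, 22.5] and a thinned share of 4.15%. The gauges thus differed, and control blood-like clusters drawn without collagen genes had 39.1 to 136 CPM. Col14a1 in SSPC-2-like, preosteoblast-like and mature osteoblast-like control cells lay within the levels of the 3 gauges. It was therefore not told apart from free RNA. Pi16 fibroblast-like cells exceeded SSPC-1-like cells 6.67-fold [6.16, 7.24] in Col14a1 and were 16.8-fold and 7.12-fold below them in Col12a1 and Col16a1. In that comparison 1 of 3 members was higher and 2 of 3 lower by 2-fold, where 10.3% and 8.93% of genes were, and the Piezo1 fl/fl library gave the same counts beside 8.94% and 7.15%. Between the fibroblast classes 0 of 3 members were past 2-fold in either direction, where 3.36% and 3.79% of genes were in the control library and 2.72% and 3.11% in the other. None of the 15 control chondrocyte-like cells had a Col14a1 UMI, which allows up to 15.1 CPM at the limit of 3 counts.

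**Figure D2:**
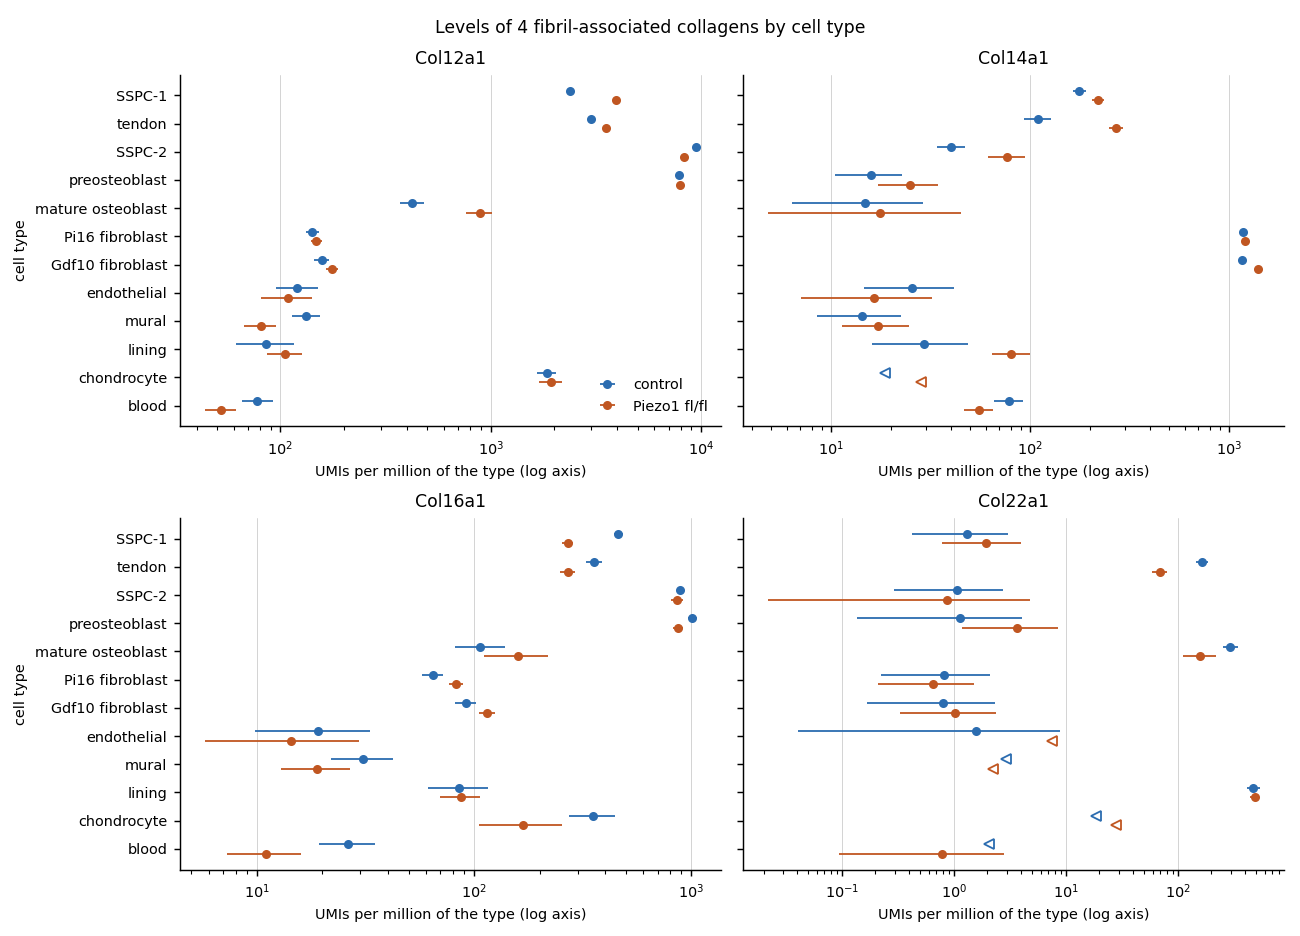
Points give UMIs per 1000000 of each cell type on a log axis for Col12a1, Col14a1, Col16a1 and Col22a1, control in blue and Piezo1 fl/fl in orange, with 95% counting intervals as bars and open triangles at the upper end of the interval where no UMI was found. Col12a1 and Col16a1 are highest in SSPC-2 and preosteoblast rows, Col14a1 in the 2 fibroblast rows and Col22a1 in the lining row.

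Collagens XII and XIV, close relatives that both coat collagen I fibrils, were detected side by side in part of the cells. Among 591 thinned control SSPC-1-like cells 75.0% held a UMI of Col12a1 alone, 118 cells held both and 1.52% held Col14a1 alone. Among Pi16 fibroblast-like cells 3.00% held Col12a1 alone, 19.5% both and 61.6% Col14a1 alone. SSPC-2-like cells were almost all Col12a1 alone (90.5%), with 8.30% holding both and none holding Col14a1 alone. Because 16.4% of endothelial-like cells, a gauge of free RNA, held Col12a1, the 19.5% of fibroblast-like cells with both genes cannot be read as co-expression.

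**Figure D3:**
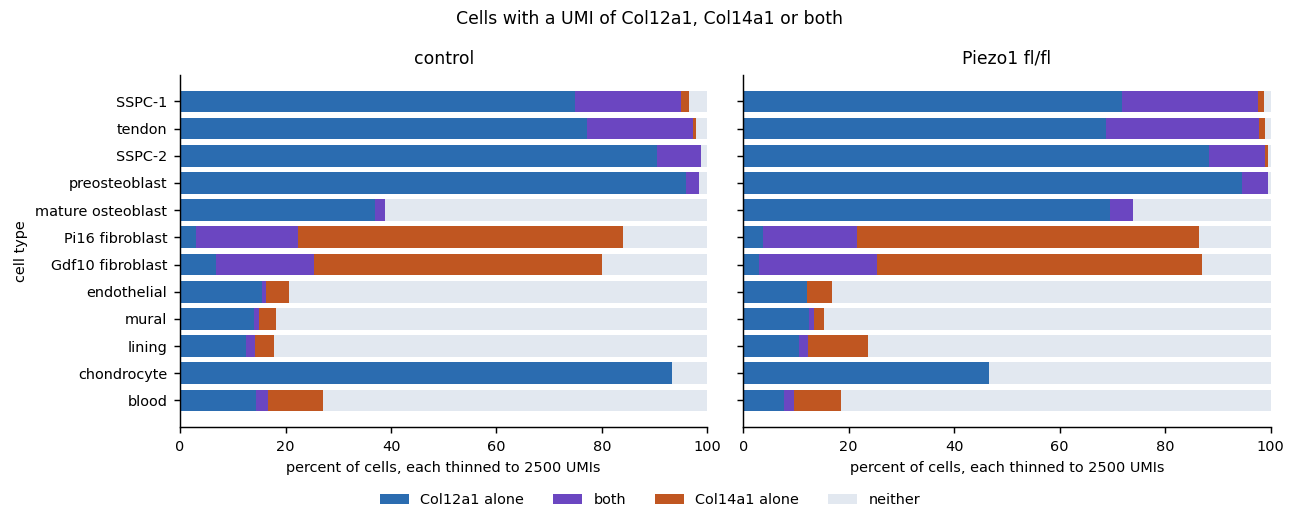
Bars give the percent of cells of each type with a UMI of Col12a1 alone, of both genes, of Col14a1 alone or of neither, each cell thinned to 2500 UMIs, with control on the left and Piezo1 fl/fl on the right. Col12a1 alone fills most of the 4 progenitor and tendon rows, and Col14a1 alone most of the 2 fibroblast rows.

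SSPC-1 and SSPC-2 are the classes the study sets against each other. In the control library Col12a1 was 3.95-fold [3.86, 4.04] and Col16a1 1.92-fold [1.82, 2.04] higher in SSPC-2-like cells, while Col14a1 was 4.41-fold [3.69, 5.30] higher in SSPC-1-like cells. As log2 ratios with SSPC-2-like cells in the denominator these are -1.98 [-2.01, -1.95], -0.94 [-1.03, -0.86] and 2.14 [1.88, 2.41]. Col22a1 had 5 and 4 UMIs in the 2 classes (log2 ratio 0.29 [-1.92, 2.62]), too few to order them. Of the 3 members with at least 100 UMIs in the 2 classes together, the SSPC-1-like class was higher for 1 and lower for 1 by at least 2-fold, where 11.3% and 5.14% of the 7204 genes with such counts were. The Piezo1 fl/fl library kept the 3 directions, at -1.08 [-1.12, -1.04] for Col12a1, -1.67 [-1.80, -1.54] for Col16a1 and 1.51 [1.19, 1.84] for Col14a1. There 1 of 3 members was higher and 2 of 3 lower by 2-fold, where 8.6% and 4.32% of genes were.

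The fibrils and the other molecules on their surface were set out in the same way. Of 9 fibril-forming collagens counted, 0 were higher and 6 lower by 2-fold in control SSPC-1-like cells (Col1a1, Col3a1, Col5a1, Col5a2, Col11a1 and Col27a1), and their median log2 ratio was -1.65 against 0.18 over all genes counted. Col5a1 and Col5a2, which limit fibril width, stood at 996 and 1774 CPM in SSPC-1-like cells, and SSPC-2-like cells had 3774 and 5581 CPM. Of 8 fibril surface partners, 6 were higher in SSPC-1-like cells, among them decorin (Dcn, 13580 against 4800 CPM), fibromodulin (Fmod, 6024 against 1798 CPM) and Comp (1614 against 93.6 CPM). Fmod is on the tendon list, whose score could place a cell in this class, so its higher level is not independent of the naming. The other 2 were lower: lumican (Lum, 464 against 4371 CPM) and tenascin-C (Tnc, 533 against 1537 CPM). The median of the 8 partners, Fmod included, was 1.62. Tenascin-X (Tnxb), to which collagens XII and XIV can bind, was 1283 CPM in Pi16 fibroblast-like cells and 53.0 CPM in SSPC-1-like cells. The other FACIT genes, Col19a1 and Col20a1, had at most 3.51 CPM in any control type.

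SSPC-2-like and preosteoblast-like cells were compared as classes and by their Ibsp level, which is 1 gene and gives no order in time. Between the classes as wholes, 0 of 3 members were higher in preosteoblast-like cells by 2-fold and 1 of 3, Col14a1, was lower, where 0.62% and 0.895% of genes were in the control library, and the Piezo1 fl/fl library gave the same counts beside 1.12% and 2.33%. The control Col14a1 levels, 40.0 and 15.8 CPM, both lie between the 14.2 CPM of mural-like and the 77.9 CPM of blood-like cells. They were not told apart from free RNA. With all cells of both classes ordered into 6 bins by Ibsp, control Col12a1 was 8934 CPM [8786, 9085] in the 253 cells with no Ibsp, 10007 CPM in the next bin, and 6264 CPM [6010, 6526] in the 55 cells with at least 100 Ibsp UMIs per 10000. Control Col16a1 was 887 CPM [841, 936] in the first and 1043 CPM [940, 1153] in the last bin, with 847 CPM in the second and 1154 CPM in the fifth. Col14a1 stood at 58.8 and 32.9 CPM with its lowest value, 7.98 CPM, in the fifth. The Piezo1 fl/fl library gave 8381 and 7344 CPM for Col12a1 and 770 and 839 CPM for Col16a1 at the 2 ends. Col12a1 was thus lowest in the bin richest in Ibsp in both libraries, and Col16a1 was not. Other bone genes did not all rise with Ibsp. Bglap2 was 672 and 1034 CPM in the first and last bins of the control library, and 915 and 750 CPM in the other. Sp7 was 189 and 291 CPM in the control bins, and 168 and 206 CPM in the other library.

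**Figure D4:**
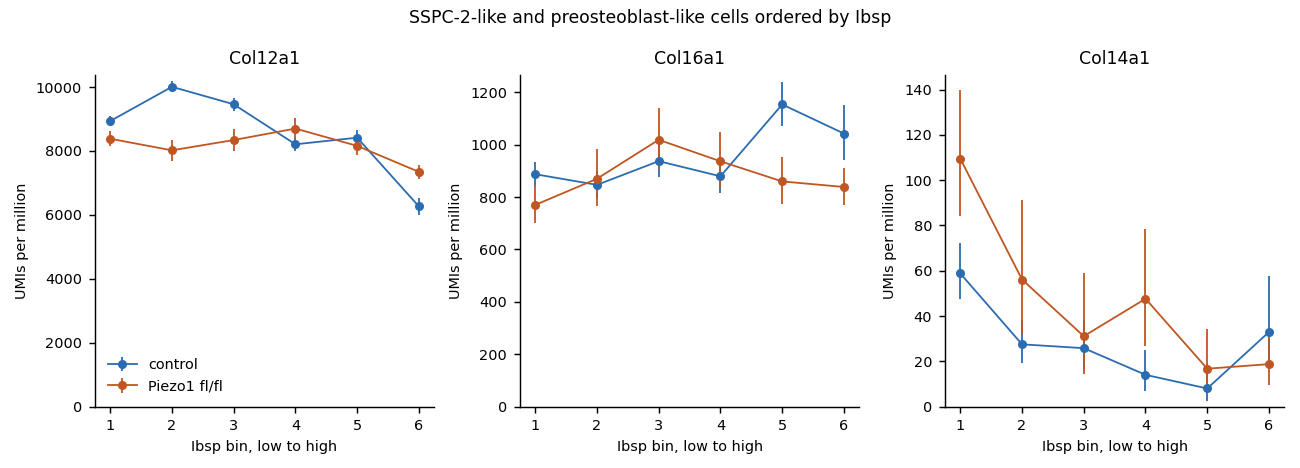
Levels in UMIs per 1000000 of Col12a1, Col16a1 and Col14a1 in SSPC-2-like and preosteoblast-like cells sorted into 6 bins of rising Ibsp, control in blue and Piezo1 fl/fl in orange, with 95% counting intervals. In the last bin Col12a1 is at its lowest in each library, at 6264 and 7344.

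Col22a1 was found in separate places. In the control library Prg4-rich lining-like cells stood at 475 CPM [415, 541], mature osteoblast-like cells at 295 CPM [251, 345] and tendon-like cells at 165 CPM [145, 187], each apart from the next beyond counting error. Every other named type had 1.59 CPM or less. Clustering the control cells without collagen genes reversed the order of lining-like and mature osteoblast-like cells. There the 33-cell mature osteoblast-like cluster had 404 CPM, the 96-cell lining-like cluster 283 CPM and the tendon-like cluster 183 CPM. Which of the 2 is higher in that library thus depends on how the classes were drawn. The gene was present in 77.2% [64.2, 87.3] of the 57 lining-like cells, 50.8% [37.7, 63.9] of the 61 mature osteoblast-like cells and 12.6% [8.69, 17.3] of the 247 tendon-like cells, and in 0.599% of endothelial-like and none of 404 blood-like cells. Tendon-like cells exceeded SSPC-1-like cells 126-fold [53.4, 393]. Among the 4 members counted in these neighbouring classes it was the 1 past 2-fold in the upward direction and 0 of 4 were past it downward, where 2.61% and 6.85% of genes were. In the Piezo1 fl/fl library the same 1 of 4 and 0 of 4 stood beside 2% and 2.99% of genes. Within tendon-like cells it was unevenly spread: 31 cells held a UMI and 18 of them held at least 5. Mature osteoblast-like cells exceeded the preosteoblast-like cells, with 2 UMIs, 262-fold [71.4, 2183]. The Piezo1 fl/fl library gave 486 CPM [445, 530] in 128 lining-like, 159 CPM [111, 220] in 28 mature osteoblast-like and 69.0 CPM [58.7, 80.6] in tendon-like cells. Of the 36 UMIs in those mature osteoblast-like cells 22 were in 1 cell, without which the level was 73.6 CPM, so their place above tendon-like cells rested on that cell. In the control library the richest of the mature osteoblast-like cells held 17 of 160 UMIs.

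The highest type exceeded the next by 2-fold or more for 3 of the 7 genes in the control library (the collagen IX genes), where 15.1% of 10361 genes did so. In the Piezo1 fl/fl library 2 of 5 with enough UMIs did (Col9a2 and Col22a1), where 13.8% of 10392 did.

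The genes whose control levels ran most like each member over the 11 types with at least 50 cells were found among 6070 genes, marker genes left out, by Pearson's r of log2(CPM + 1). The points share 1 library, so r is a description. For Col12a1 they were Slc17a8 (r = 0.95), Prtg (0.94) and Col16a1 (0.94), with 0.85, 0.85 and 0.91 over the same types in the Piezo1 fl/fl library. For Col16a1 they were Thbs2 (0.97), the gene of thrombospondin-2, Edil3 (0.95) and Ptpn13 (0.95), with 0.98, 0.89 and 0.98 in the other library. Col14a1 ran with Myoc (0.93), Dapk1 (0.93) and complement C3 (0.93), with 0.94, 0.90 and 0.87. Col22a1 had neighbours of lower r, Megf10 (0.86), Cmya5 (0.82) and the fibrillin gene Fbn2 (0.82), with 0.75, 0.65 and 0.83. The collagen IX genes were under 50 CPM in every one of these types and were not matched.

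Between genotypes, Col12a1 was higher in the Piezo1 fl/fl library in some classes and lower in others. SSPC-1-like cells held 2390 CPM [2341, 2439] in the control library, against 3920 CPM [3856, 3985] with Piezo1 floxed, a log2 ratio of 0.71 [0.68, 0.75]. SSPC-2-like cells held 9429 and 8282 CPM, a log2 ratio of -0.19 [-0.22, -0.15], and preosteoblast-like cells 7882 and 7903 CPM (0.00 [-0.03, 0.04]). In tendon-like cells the ratio was 0.24 [0.18, 0.29], and in mature osteoblast-like cells, 61 and 28 of them, 1.06 [0.78, 1.34]. The difference in SSPC-1-like cells was not that of a few cells: the median cell held 18.6 and 32.7 UMIs per 10000 in the 2 libraries, and the 90th percentile was 45.2 and 75.1. In mature osteoblast-like cells 1 of 2 members counted (Col12a1) was higher and 1 of 2 (Col22a1) lower by 1.5-fold, where 9.31% and 16.6% of genes were, and other markers differed there too. The 8 tendon markers summed to 408 and 1229 CPM (4 higher, 0 lower), the 8 chondrocyte markers to 146 and 1035 CPM (2 higher, 0 lower, 5 at 0) and the 8 blood markers to 20.3 and 154 CPM (3 higher, 0 lower, 2 at 0). The 8 SSPC-2 markers summed to 8656 and 11482 CPM (2 higher, 4 lower). Those of SSPC-1 summed to 142 and 308 CPM (1 higher, 0 lower, 1 at 0). Their part in both differences was not tested.

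The SSPC-1-like difference was seen under other ways of drawing the class. When cells were clustered without collagen genes, the 2 control clusters named SSPC-1-like had 2528 and 2537 CPM of Col12a1 and the 3 Piezo1 fl/fl clusters 3739, 4270 and 5402 CPM. With SSPC-1-like and tendon-like cells counted together the log2 ratio was 0.56 [0.53, 0.59]. Other genes differed beside it. Within SSPC-1-like cells the summed level of the 8 tendon markers was 16639 CPM in control and 16688 CPM in Piezo1 fl/fl cells, with 2 markers higher and 5 lower beyond counting error. The higher were Scx (57.9 and 277 CPM) and Thbs4 (1935 and 3246 CPM), both used in the split from tendon-like cells. The 8 SSPC-1 markers summed to 7472 and 5461 CPM, and the 8 SSPC-2 markers to 863 and 458 CPM, 0 of them higher and 5 lower. The 8 mature osteoblast markers summed to 279 and 691 CPM (2 higher, Ibsp and Spp1, 2 lower and 1 at 0) and the 8 chondrocyte markers to 123 and 198 CPM (3 higher, 2 lower, 1 at 0). The part of these shifts in the Col12a1 difference was not tested.

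Col16a1 went the other way in the same cells. It was 460 CPM [439, 482] in control and 269 CPM [253, 287] in Piezo1 fl/fl SSPC-1-like cells, a log2 ratio of -0.77 [-0.89, -0.66]. Ratios were -0.40 [-0.57, -0.23] in tendon-like and -0.22 [-0.33, -0.11] in preosteoblast-like cells. They were -0.05 [-0.15, 0.05] for the SSPC-2-like class and 0.35 and 0.33 for Pi16 and Gdf10 fibroblast-like cells. SSPC-2 markers differed too. The 8 summed to 863 and 458 CPM in SSPC-1-like (0 higher, 5 lower) and 1522 and 774 CPM in tendon-like cells (1 higher, 3 lower). In preosteoblast-like cells they summed to 24728 and 23898 CPM (1 higher, 5 lower). In the SSPC-2-like class they summed to 22963 and 16869 CPM (2 higher, 5 lower). Their part in the Col16a1 differences was not tested. Of the 3 members counted in SSPC-1-like cells, 1 was higher and 1 lower by at least 1.5-fold in the Piezo1 fl/fl library, where 4.32% and 6.62% of 7264 genes were. Of 10 fibril-forming collagens counted there, 2 were higher by that fold (Col2a1 and Col11a2) and 0 lower, with a median log2 ratio of 0.085 against -0.025 over all genes. Lum was the higher and Tnc the lower of the 8 fibril surface partners past that fold.

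Col14a1 was higher in the Piezo1 fl/fl library in several skeletal classes. In tendon-like cells it was 109 CPM [92.8, 128] in the control and 270 CPM [249, 292] in the other library, a log2 ratio of 1.31 [1.05, 1.57]. There it was the 1 of 4 members higher by 1.5-fold, and Col22a1 the 1 of 4 lower, where 6.56% and 5.94% of 4666 genes were. The level was 40.0 and 76.8 CPM in SSPC-2-like cells (0.94 [0.55, 1.33]), 176 and 219 CPM in SSPC-1-like cells (0.31 [0.16, 0.46]) and 29.2 and 80.3 CPM in lining-like cells (1.46 [0.63, 2.39]). The control SSPC-2-like level lies between the 14.2 CPM of mural-like and the 77.9 CPM of blood-like cells. It was not told apart from free RNA. The Piezo1 fl/fl level stands beside 17.1 CPM [11.4, 24.7] in mural-like and 55.0 CPM [46.3, 64.9] in blood-like cells. The control lining-like level, near the 25.4 CPM of endothelial-like cells, came from 14 UMIs of which 9 were in 1 cell, and without that cell the ratio was 2.93 [1.65, 4.58]. The 4 lining markers summed to 143395 and 48291 CPM in those cells (0 higher, 4 lower), the tendon markers to 452 and 740 CPM and the blood markers to 20.8 and 88.9 CPM, and their part was not tested. In SSPC-2-like cells it was the 1 of 3 members higher by 1.5-fold, with 0 of 3 lower, where 6.44% and 4.51% of 5547 genes were. Fibroblast markers differed beside it: the 8 on the fibroblast list summed to 1017 CPM in control and 1819 CPM in Piezo1 fl/fl tendon-like cells (6 higher, 2 lower), to 480 and 753 CPM in SSPC-2-like cells (4 higher, 0 lower), and to 1287 and 1553 CPM in SSPC-1-like cells (4 higher, 2 lower). None of the 8 was at 0 in any of these classes, and their part in the Col14a1 difference was not tested. In the fibroblasts themselves, where the gene is most abundant, the log2 ratio was 0.02 [-0.02, 0.07] for Pi16 and 0.26 [0.21, 0.32] for Gdf10 fibroblast-like cells. Of the 3 members counted, 0 were past 1.5-fold in either direction in the Pi16 class, where 2.95% of genes were higher and 5.88% lower, and 0 of 3 in the Gdf10 class, where 2.76% and 5.19% were. The same held for 2 members in preosteoblast-like cells (4.84% and 5.23%), 1 in endothelial-like cells (4.76% and 6.09%), 2 in blood-like cells (5.7% and 6.51%) and 3 in lining-like cells (13.1% and 5.08%), where Col14a1, with 14 and 84 UMIs, fell short of the 100 needed to be counted. In mural-like cells Col12a1, the 1 member counted, was lower and 0 were higher (2.83% and 1.84%), but without the control cell richest in it the log2 ratio went from -0.72 to -0.39. In endothelial-like cells that of Col12a1 went from -0.16 to -1.40 without the Piezo1 fl/fl cell that held 31 of its 53 UMIs.

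**Figure D5:**
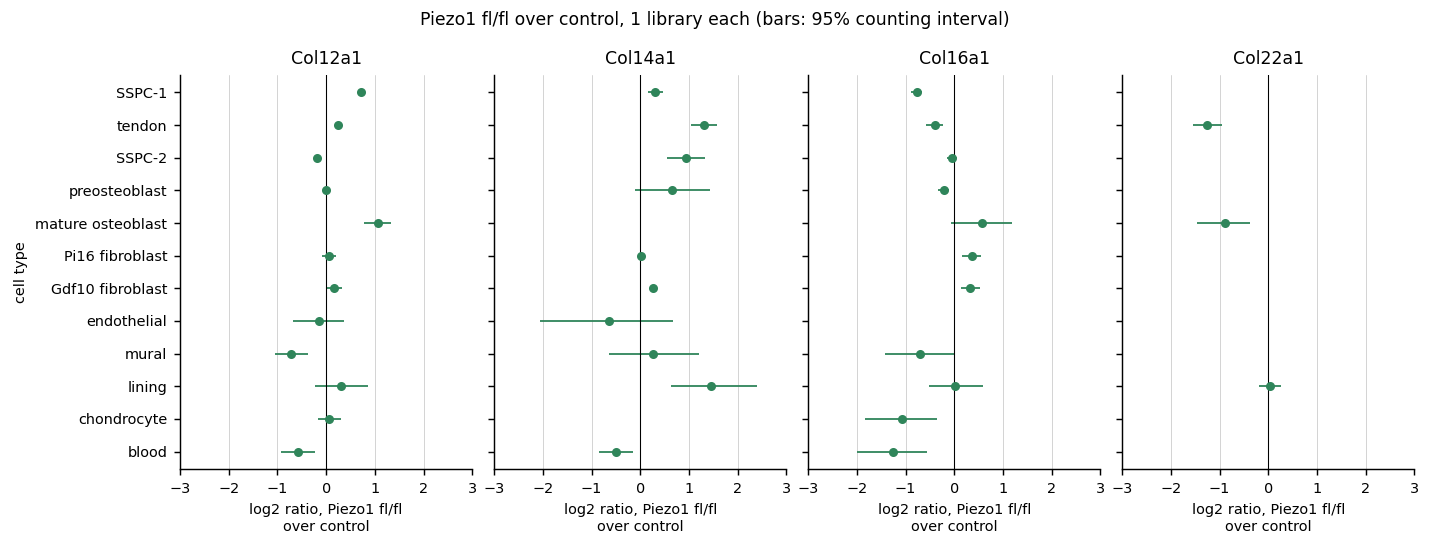
Points give the log2 ratio of the level in the Piezo1 fl/fl library to that in the control library for each cell type, with 95% counting intervals, for types in which the 2 libraries together had at least 20 UMIs of the gene. In the SSPC-1 row Col12a1 lies right of 0 at 0.71 and Col16a1 left of 0 at -0.77, and Col14a1 lies right of 0 in the tendon row at 1.31.

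Col22a1 was lower in the Piezo1 fl/fl library in 2 of its 3 classes. It was 165 and 69.0 CPM in control and Piezo1 fl/fl tendon-like cells (log2 ratio -1.26 [-1.56, -0.96]), 295 and 159 CPM in mature osteoblast-like cells (-0.90 [-1.46, -0.37], or -2.0 [-2.91, -1.22] without the 1 Piezo1 fl/fl cell that held 22 of 36 UMIs), and 475 and 486 CPM in lining-like cells (0.03 [-0.19, 0.27]). The share of tendon-like cells with a UMI was 12.6% against 6.83% [4.69, 9.55], from 31 cells in each. The lining markers differed in the same tendon-like cells, summing to 3124 CPM in control and 1132 CPM in Piezo1 fl/fl cells, with 1 of the 4 markers higher and 1 lower. In mature osteoblast-like cells they summed to 380 and 61.7 CPM, and the tendon, chondrocyte and blood markers given above differed there as well. Their part in the Col22a1 difference was not tested.

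The 4 other members lie on chromosome 9 (Col12a1, 79598991 to 79718831, minus strand), chromosome 15 (Col14a1, 55307750 to 55520803, plus, and Col22a1, 71795795 to 72034227, minus) and chromosome 4 (Col16a1, 130047840 to 130099283, plus). In GENCODE vM21 a gene on the opposite strand overlaps Col9a3 (Tcfl5), Col12a1, Col14a1 (3 genes) and Col22a1. Whether counting used the strand is not given in the sources used here, so a few UMIs of these members could belong to the other strand.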

How the data were processed

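Single cells were captured with the BD Rhapsody system and their 3′ ends sequenced. The authors deposited UMI counts per gene and cell for each library, and the submitters' processing notes name fastp, UMI-tools, STAR and Seurat (version 4.0.3), with no build named. The 31253 features were matched to GENCODE vM21 (GRCm38), which holds 31107. The deposited counts hold 1 control and 1 Piezo1 fl/fl library, and groups came from the genotype labels.

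Retention required 1000 to 5000 detected genes and a mitochondrial share below 25%, and doublets (46 of 5551 and 67 of 6784 barcodes scored, 0.829% and 0.988%) were removed with scanpy 1.11.5 Scrublet. Each cell was named from 100 of 109 listed markers seen in at least 20 cells. Its score on a list was the mean of log(1 + UMIs per 10000), each marker scaled to a high percentile. The best score had to reach 0.2 and lead by 0.05. For these rules the SSPC-1 and tendon lists shared a score, the higher of both. A cell could thus be named SSPC-1-like by its tendon score, and the tendon threshold then split the classes. The tendon, Ibsp and score thresholds were set after the data were seen. Schwann and muscle names were not used, because their defining markers were absent.

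UMIs were summed per type. Intervals (95%) came from scipy 1.17.1, and no test was possible with 1 library per genotype. Genes with at least 100 UMIs over both groups of a comparison gave the background. Named genes are the 7 members, fixed lists, and the 3 genes of highest r to a member among those with at least 50 CPM in some type. Members matched had at least 200 UMIs in named control cells and 50 CPM in some of the 11 types. The members, lists and alternatives (8 planned, 3 added after seeing the data) were chosen with earlier results of these data known. The interval code was tested on simulated data.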

Additional observations from a re-analysis of the deposited data

Results flagged for a closer look

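Some members differed between the libraries in opposite directions in different cell types, each interval lying on one side of 0. The values below are log2 ratios of Piezo1 fl/fl over control and the difference between cell types was not tested. Col9a1 had 3.25 in SSPC-1-like cells, from 2 and 18 UMIs of which 9 were in 1 cell (2.25 [-0.02, 5.50] without that cell), and -3.72 in chondrocyte-like cells. Col9a2 had 1.30 in SSPC-2-like and -2.60 in chondrocyte-like cells. Col12a1 had 1.06 in mature osteoblast-like and -0.72 in mural-like cells, the latter -0.39 without the control cell richest in it. Col14a1 had 1.46 in lining-like cells, from 14 control UMIs of which 9 were in 1 cell (2.93 without it), and -0.50 in blood-like cells. Col16a1 had 0.35 in Pi16 fibroblast-like and -1.26 in blood-like cells. Mural-like and blood-like cells served as gauges of free RNA, so whether their values are free RNA was not tested. With clusters drawn without collagen genes, the control mural-like clusters of 35 and 262 cells had 734 and 70.1 CPM of Col12a1.

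Barcodes left out by the cell filters also held collagen IX. In the control library 1700 such barcodes had 51 UMIs of Col9a1, 56 of Col9a2 and 29 of Col9a3, with up to 27, 23 and 17 in 1 barcode. In the Piezo1 fl/fl library 2385 had 25 UMIs of Col9a2, with at most 3 in 1 barcode, 2 of Col9a1 and 0 of Col9a3.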

How the results depend on the processing

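No paired analysis was possible because each genotype has 1 library and the labels carry no replicate numbers. The 8 log2 ratios were recomputed under 7 other settings and 2 added after seeing the data, 70 values in all; the 7 whose interval excluded 0 kept their sign in all 61 of their values. Among ratios of SSPC-1-like cells to the SSPC-2-like class only that of Col22a1, from 5 and 4 UMIs, changed sign, with -0.88 under a stricter lead of the best type and -0.62 as a mean over cells. With SSPC-1-like and tendon-like cells counted together it was 5.43, the Col12a1 and Col16a1 ratios -1.88 and -1.04, and the genotype ratios in those cells 0.56 for Col12a1 and 0.59 for Col14a1. Clustering without collagen genes gave -1.93 for Col12a1 and 2.44 for Col14a1 (between the 2 classes) and -0.24 for the Col12a1 genotype ratio in SSPC-2-like cells. The mean over cells gave -1.90 and 1.75, and genotype ratios of Col12a1 of 0.77 in the SSPC-1-like class and -0.091 in SSPC-2-like cells. Wider limits on genes per cell gave -0.22 for the last, and keeping doublets 1.84 for Col14a1. Thinning lowered the share of control cells with a UMI in SSPC-1-like cells to 94.9% for Col12a1, 21.5% for Col14a1 and 59.1% for Col16a1, and in SSPC-2-like cells to 8.30% for Col14a1 and 78.9% for Col16a1. A further setting added after seeing the data left out the cell richest in a gene. It covered the 7 members, and Ibsp and Col1a1 in chondrocyte-like cells. Where it moved a printed value of a member from at least 20 UMIs by over 1.5-fold, the change is given beside the result. Other printed values, such as marker sums, were not recomputed in this way. The cause of each shift was not tested. Depth limits Col22a1 and collagen IX outside the types rich in them.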

Other observations

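Perineurial-like cells, named from Cldn1, Itgb4, Slc2a1, Mpzl2 and Perp, were 33 in the control library and 1 in the Piezo1 fl/fl library. In the 33 control cells Col12a1 stood at 1721 CPM [1528, 1932], 14.2-fold [11.03, 18.6] above endothelial-like cells, and 97.0% of them held a UMI. The other FACIT genes were low there: Col16a1 had 8 UMIs, Col14a1 3, Col9a1 2 and Col22a1 0.

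Col15a1, a basement membrane collagen of the multiplexin group, was 1504 CPM in Gdf10 and 490 CPM in Pi16 fibroblast-like cells of the control library, 702 CPM in endothelial-like cells, and 654 CPM in SSPC-1-like cells against 93.6 CPM in SSPC-2-like cells. Col18a1, its relative, was highest in perineurial-like (574 CPM) and mural-like cells (436 CPM).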
